A study of Mus musculus with 30 samples.

Results

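The DNA replication and S phase genes described here are 47 genes, taken by symbol from a list, and all 47 symbols were found in all 3 deposited count tables, which share 20730 symbols. They were followed in bulk RNA sequencing of T cells from C57BL/6 mice, sorted by flow cytometry into 5 populations: from the thymus, CD4+CD8+ double-positive (DP) cells, CD4 single-positive (SP) cells and CD8 SP cells, and from the spleen, CD4 and CD8 T cells. In each population 3 control mice, with the genotype label wild type (WT), were compared with 3 conditional knockout (CKO) mice of the genotype CD4-Cre+ PRMT5fl/fl, which makes 30 libraries. PRMT5 is an enzyme that adds symmetric methyl groups to arginines of histones and splicing proteins. CD4-Cre is active in thymocytes from about the DP stage, so that both CD4 and CD8 lineage cells are meant to carry the deletion. No group carried CD4-Cre without the floxed gene, so an effect of Cre and an effect of losing Prmt5 cannot be told apart. The labels give neither age nor sex.

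Replication is prepared in one phase of the cell cycle and started in the next. In G1 the origin recognition complex (Orc1, Orc6) and the loaders Cdc6 and Cdt1 place the ring of Mcm2 to Mcm7 on DNA, which is called licensing. In S phase Mcm10, Cdc45 and the GINS proteins (Gins1 to Gins4) turn that ring into a working helicase, Claspin (Clspn) carries the checkpoint signal, and primase and the polymerases copy the strands behind it. The clamp Pcna, its loaders Rfc2 to Rfc5, the flap nuclease Fen1, the ligase Lig1 and the single-strand binding proteins Rpa1 and Rpa2 serve the lagging strand, ribonucleotide reductase (Rrm1, Rrm2), Tyms, Tk1 and Dut supply or guard the nucleotides, and Chaf1a, Chaf1b, Uhrf1 and Slbp package the new DNA or keep its methylation. Cyclins E (Ccne1, Ccne2) and the E2F factors (E2f1, E2f2) act at the G1 to S transition, and E2F sites lie before many of these genes. Developing thymocytes pass through a proliferating stage before most DP cells come to rest, and naive T cells of the spleen are mostly quiescent.

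RefSeq promoter windows, from 250 bases before to 50 bases after a start on build GRCm38.p6, were given for 39 of the 47 genes. Any of the 4 E2F motifs TTTGGCGC, TTTGCCGC, TTTCGCGC and TTTCCCGC, read on both strands, was found in 16 of those 39 genes (41.0%), against 704 of 27025 genes in all (2.61%). The CCAAT box, letters CCAAT, was found in 24 of the 39 (61.5%) against 41.1% of all genes, and the CHR element TTTGAA in 5 (12.8%) against 20.2%. The motifs may overlap each other, and a match is a description of the letters, not a site shown to be used. The first 6 sequences below are from the genes with an E2F match that rose in CKO spleen CD8 cells, and the seventh is from Mcm6, whose genotype effect differed between the spleen populations. The capitals mark the E2F match, which reads as the motif or as its reverse complement, and adjoining or overlapping matches are marked as one.
Cdc6, plus strand, chr11:98907987-98908046: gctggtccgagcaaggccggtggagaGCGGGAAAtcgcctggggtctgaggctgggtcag
Mcm5, plus strand, chr8:75109330-75109389: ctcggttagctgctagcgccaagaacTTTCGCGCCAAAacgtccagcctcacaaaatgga
Uhrf1, plus strand, chr17:56304102-56304161: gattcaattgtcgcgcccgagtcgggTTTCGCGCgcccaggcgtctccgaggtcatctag
Clspn, plus strand, chr4:126556993-126557016: gcgtctggGCGCGAAAgctcgaac
Lig1, plus strand, chr7:13278844-13278867: caaagtgcGCGCGAAAtctgtgtg
E2f2, plus strand, chr4:136172305-136172323: gcatatagTTTGGCGCtaa
Mcm6, minus strand, chr1:128359782-128359841: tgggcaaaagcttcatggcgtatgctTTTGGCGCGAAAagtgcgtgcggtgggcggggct

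In the Cdc6, Mcm5, Uhrf1 and Mcm6 windows these matches lie before the start, and in Clspn, Lig1 and E2f2 they lie just after it. An E2F match was present in 6 of the 13 genes with a window that rose in CKO spleen CD8 cells and in 10 of the 25 tested there that did not. Mcm6 and Mcm5 each carry a TTTGGCGC and a TTTCGCGC match on opposite strands that share bases.

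Levels are given as CPM, counts scaled to one common library total, and fold changes as log2 of CKO over WT from edgeR's quasi-likelihood test, where a gene was called at a Benjamini-Hochberg adjusted p under 0.05 over all genes tested. Totals ran from 11865646 to 35353441 counts per library. Prmt5 itself was lower in every CKO library than in any WT library of its population: 30.4 to 31.1 CPM against 59.8 to 69.4 in DP, 25.3 to 39.6 against 57.5 to 68.4 in CD4 SP, 115 to 117 against 134 to 149 in CD8 SP, 18.8 to 24.6 against 43.5 to 44.9 in spleen CD4 and 29.1 to 41.3 against 60.9 to 66.3 in spleen CD8. The fall in Prmt5 passed edgeR's test in 4 populations, with log2 changes of -1.09 (DP), -0.31 (CD8 SP), -0.97 (CD4 cells of the spleen) and -0.87 (CD8 cells of the spleen), while the -0.99 of CD4 SP had an adjusted p of 0.958. The call in CD8 SP (adjusted p = 0.0450) was lost without any 1 of its libraries (0.0541 to 0.164) and with sex as a covariate (0.356), and the call in DP was lost with all 12 libraries of its table in one fit (adjusted p = 1). Spleen CD4 libraries held Cd4 at 860 to 982 CPM with Cd8a at 2.31 to 5.38, and spleen CD8 libraries held Cd8a at 1077 to 1501 with Cd4 at 1.8 to 13.4. Thymus CD8 SP libraries held Cd8a at 839 to 990 and Cd4 at 36.4 to 55.8, with Rag1, a recombinase of immature thymocytes, at 703 to 905. The thymus CD4 SP libraries went against their label in part: they also held Cd8a, at 1134 to 1543 CPM in WT and at 2207, 43.4 and 967 in CKO mice 14, 17 and 23. Labels do not say how the mice of one group relate to each other, and p-values measure the spread between these libraries.

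The summed level of the 47 genes was highest in thymus CD8 SP cells and lowest in the spleen. In WT libraries it was 11871 CPM ± 453 (SD, n = 3 here and below) in thymus CD8 SP, 5795 ± 795 in DP, 3974 ± 292 in thymus CD4 SP, 1845 ± 23.4 in spleen CD8 and 1753 ± 51.6 in spleen CD4, and the WT ranges of these 5 populations did not overlap. In CKO libraries it was 12353 ± 226, 5048 ± 186, 3774 ± 1695, 2130 ± 76.7 and 1762 ± 99.0 in the same order. In spleen CD8 cells every CKO library (2045 to 2194 CPM) stood above every WT library (1821 to 1868). Elsewhere the ranges of the genotypes overlapped, in thymus CD8 SP only just, with the lowest CKO library at 12181 CPM and the highest WT library at 12201. In bulk libraries, fewer cells in cycle and less RNA per cell cannot be told apart. DP and CD4 SP share one table, the spleen and CD8 SP tables list more genes, and levels across tables are set side by side without a test. Thymus CD8 SP libraries also held immature markers. Ptcra stood at 35.1 to 47.6 CPM there and 19.9 to 31.3 in DP, while the 7 immature thymocyte markers summed to 2437 to 2582 and 3147 to 3542. Mki67, a proliferation marker, stood at 2159 to 2560 CPM in CD8 SP and 917 to 1482 in DP. The part of immature cells in the CD8 SP level was not tested.

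**Figure D1:**
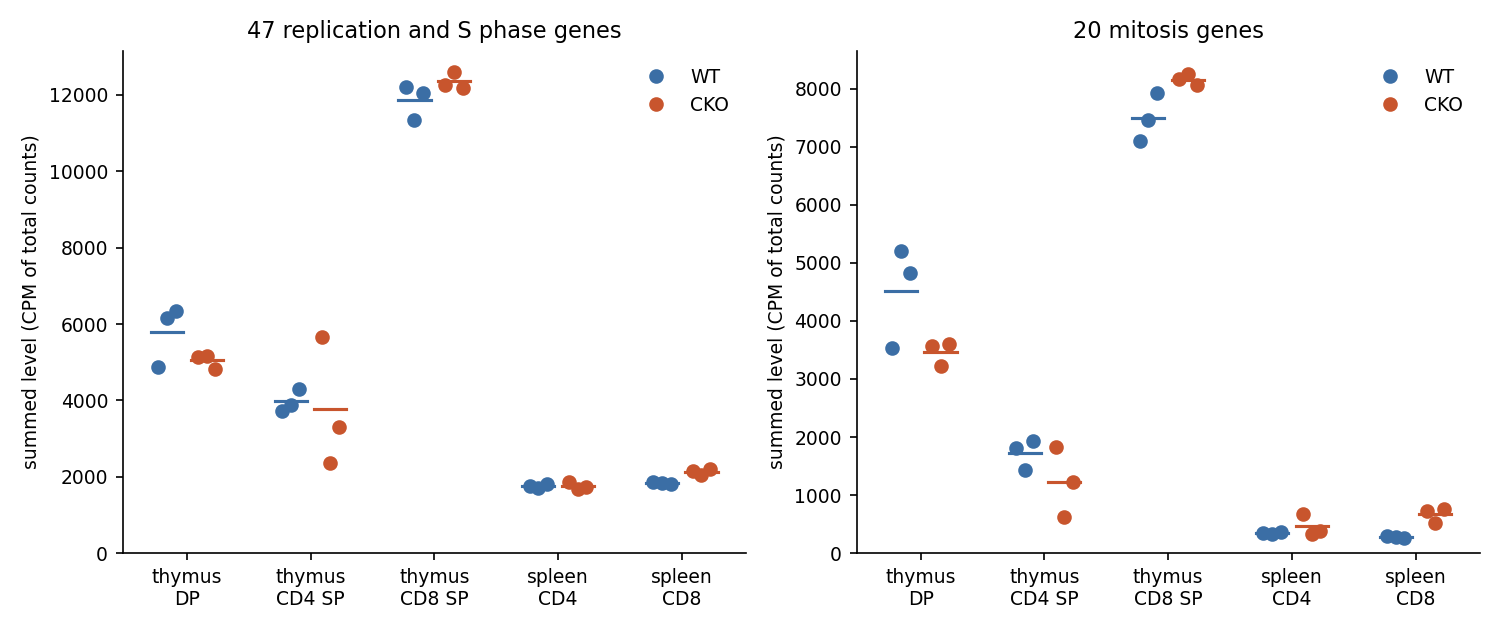
Summed CPM per library (points; short lines are group means) of the 47 replication and S phase genes, left, and of 20 mitosis genes, right, in the 5 populations, WT in blue and CKO in orange. The thymus CD8 SP libraries lie highest in both panels, the 3 CKO libraries of thymus CD4 SP spread from 2354 to 5651 CPM, and the CKO libraries of spleen CD8 lie above the WT libraries in both panels. The CKO libraries of thymus CD8 SP lie above WT in the right panel (8057 to 8253 against 7102 to 7917 CPM) and overlap WT in the left panel. The mitosis sum includes Kif11, at most 0.0843 CPM in DP and CD4 SP libraries and 479 to 574 in CD8 SP.

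Per kilobase of exon, Pcna, the sliding clamp, had the highest WT level of the 47 genes in all 5 populations, at 341 CPM per kb in CD8 SP, 164 in DP, 128 in CD4 SP, 88.8 in CD4 cells of the spleen and 78.1 in CD8 cells of the spleen. Mcm10, which helps to fire the loaded helicase, was near the bottom, at 2.88 CPM per kb in WT CD4 SP and 0.36 and 0.37 in spleen CD4 and CD8. Cdc45, the helicase activator, held 42.8 to 63.7 CPM in DP and 12.4 to 48.7 in CD4 SP, and 2.55 to 4.55 in CD8 SP, where the other helicase and checkpoint genes were higher than in DP. In the spleen it held at most 0.654 CPM and was too low to be tested. The DP and CD4 SP counts come from another table than the rest. Other genes had gaps between these tables too. Kif11, a mitosis gene, held at most 0.0843 CPM in DP and CD4 SP libraries and 479 to 574 in CD8 SP. Skp2 held 0 CPM in DP and CD4 SP and 42.1 to 50.4 in CD8 SP. The part of the counting in these gaps was not tested.

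Spleen CD8 T cells held most of the genes called between genotypes. There 14 of the 46 genes tested rose in CKO cells and none fell by edgeR's test, nor by limma or DESeq2. They were the transcription factors E2f2 and E2f1, the loaders and helicase parts Cdc6, Mcm5, Mcm10 and Clspn, the polymerase subunit Pole, Lig1 and Rpa2, the nucleotide enzymes Rrm2, Tyms and Tk1, and the chromatin factors Chaf1a and Uhrf1. Of all genes tested in this population, 9.83% were called higher and 6.22% lower, against 30.4% of these 46 called higher. The median log2 change of the 46 was 0.18, against -0.01 over all genes tested. By role, the genes that rose were 3 of 5 nucleotide genes, 2 of 4 chromatin genes, 2 of 4 G1 to S regulators, 2 of 10 licensing genes, 2 of 7 helicase and checkpoint genes (Cdc45 among the 7 was not tested), 2 of 9 clamp and lagging strand genes and 1 of 7 polymerase and primase genes, and a difference between roles was not tested.

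**Figure D2:**
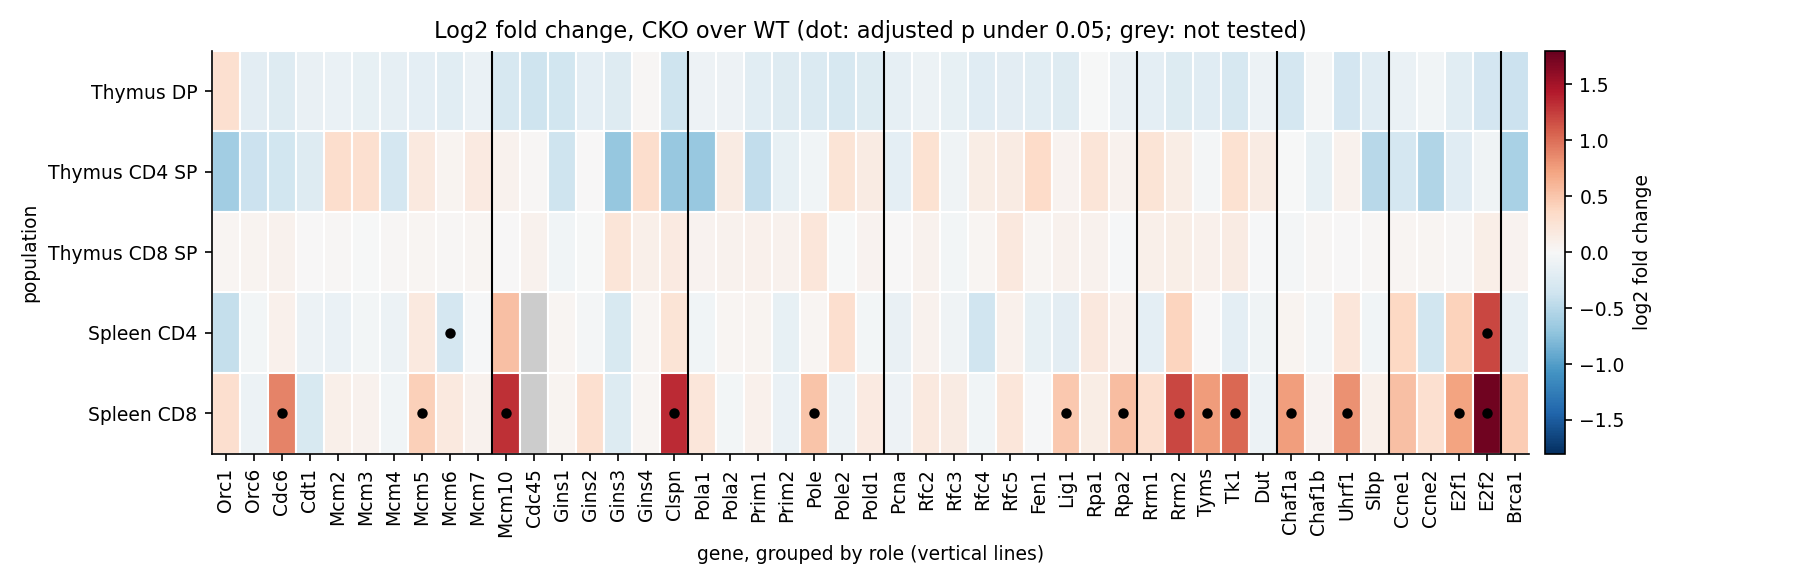
Log2 fold change of CKO over WT for the 47 genes (columns, in role order with vertical lines between roles) in each population (lines of the map), red for higher and blue for lower in CKO, with a black dot at an adjusted p under 0.05 and grey where the gene was too low to be tested. Dots fill 14 cells of spleen CD8 and 2 of spleen CD4, and the 3 thymus populations have none.

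The G1 to S regulators held the largest change. E2f2, a transcriptional activator of S phase genes, held 17.9, 20.1 and 18.6 CPM in WT mice 67, 70 and 71 and 72.5, 50.2 and 71.7 in CKO mice 65, 68 and 72. The groups lay far apart, and the log2 change was 1.76 (SE 0.13, adjusted p = 6.32e-05). E2f1, a close relative, held 3.60, 5.06 and 5.85 CPM in WT and 7.68, 8.23 and 8.53 in CKO. These groups were also apart, with a log2 change of 0.73 (SE 0.20, adjusted p = 0.0293), but the call was lost when any of WT 67, WT 70, CKO 68 or CKO 72 was left out (adjusted p 0.0638 to 0.0961). Cyclin E1 (Ccne1), the partner of Cdk2 at S phase entry, held 10.6, 10.5 and 7.25 CPM in WT against 20.1, 9.04 and 12.9 in CKO. CKO 68 lay inside the WT range, and the log2 difference of 0.54 (SE 0.25) had an adjusted p of 0.177, or 0.0382 without CKO 68.

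Among the chromatin factors, Uhrf1, which guides maintenance methylation to new DNA, held 24.3, 23.5 and 25.6 CPM in WT and 44.0, 40.7 and 47.1 in CKO. All 3 CKO libraries stood well above WT, with a log2 change of 0.82 (SE 0.09, adjusted p = 0.000323). Chaf1a, the large subunit of the histone chaperone CAF-1, held 8.90, 9.59 and 9.67 CPM in WT and 15.7, 13.9 and 18.3 in CKO, a log2 change of 0.75 (SE 0.14, adjusted p = 0.00451). Its partner subunit Chaf1b (16.8 to 19.1 CPM in WT, 16.8 to 20.7 in CKO) did not pass. Exons of Ubxn6 on the opposite strand cover 52.5% of the exon bases of Chaf1a. Among the 47 genes, such overlaps also cover 67.3% of Gins2 (by Gse1) and 78.8% of Fen1 (by Gm10143). The strand setting of the counting is not given in the sources used here.

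Of the helicase and checkpoint genes, Clspn, the adaptor that lets Atr activate Chk1, held 7.43, 7.33 and 7.32 CPM in WT and 22.4, 14.3 and 20.1 in CKO. The WT libraries hardly differed from each other and CKO 68 was the lowest of the CKO libraries, with a log2 change of 1.34 (SE 0.16, adjusted p = 0.000457). Mcm10 held 2.61, 3.14 and 2.72 CPM in WT and 7.41, 5.53 and 8.46 in CKO, a log2 change of 1.31 (SE 0.21, adjusted p = 0.00219). The GINS genes did not follow them: Gins1, a core subunit, held 2.34 to 2.45 CPM in WT and 2.36 to 2.62 in CKO. None of the 4 GINS genes was called.

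Of 10 licensing genes, 2 rose. Mcm5 held 76.3, 72.9 and 75.5 CPM in WT and 101, 101 and 107 in CKO, groups far apart for their spread, with a log2 change of 0.43 (SE 0.07, adjusted p = 0.00216). Cdc6, which loads the Mcm ring, held 5.30, 7.02 and 4.64 CPM in WT and 10.7, 10.8 and 10.5 in CKO, a log2 change of 0.90 (SE 0.17, adjusted p = 0.00564). The partner loader Cdt1 lay the other way, at 93.2, 95.0 and 100 CPM in WT and 68, 91.1 and 81.2 in CKO, without overlap. Its log2 difference of -0.28 (SE 0.11) had an adjusted p of 0.0987, and 0.0234 without CKO 68. Mcm2, Mcm6 and Mcm7 also stood higher in every CKO library, by small amounts that were not called, while Mcm3 and Mcm4 overlapped.

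On the synthesis side, Pole, the catalytic subunit of the leading strand polymerase, held 22.7, 25.9 and 26.7 CPM in WT and 35.5, 36.2 and 36.9 in CKO. The groups did not overlap and the log2 change was 0.51 (SE 0.10, adjusted p = 0.00491). Pola1, the catalytic subunit of the polymerase that extends primers, held 20.3 to 22.4 CPM in WT and 21.4 to 27.9 in CKO, and its log2 difference of 0.22 (SE 0.12) was not called (adjusted p = 0.243). Lig1, which seals Okazaki fragments, held 31.4, 28.1 and 28.5 CPM in WT and 40.7, 39.8 and 44.8 in CKO, a log2 change of 0.49 (SE 0.09, adjusted p = 0.00544). Rpa2, a subunit of the single-strand binding complex, held 50.4, 46.8 and 40.1 CPM in WT and 70.9, 65.6 and 68.2 in CKO, a log2 change of 0.55 (SE 0.09, adjusted p = 0.00251). Both of these genes had every CKO library above every WT library. Pcna, the most abundant of the set for its length, held 196, 186 and 181 CPM in WT and 165, 179 and 194 in CKO, and the overlapping groups gave a log2 difference of -0.09 (SE 0.08, adjusted p = 0.528).

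Of the nucleotide genes, 3 of 5 rose. Rrm2, the S phase subunit of ribonucleotide reductase, held 14.2, 12.7 and 11.6 CPM in WT and 36.6, 19.9 and 33.7 in CKO, a log2 change of 1.20 (SE 0.20, adjusted p = 0.00219). Tyms, which makes thymidylate, held 7.54, 6.98 and 6.42 CPM in WT and 12.1, 10.9 and 13.2 in CKO, a log2 change of 0.77 (SE 0.15, adjusted p = 0.00517). The salvage kinase Tk1 held 4.19, 3.64 and 4.0 CPM in WT and 11.1, 6.14 and 7.39 in CKO, a log2 change of 1.03 (SE 0.22, adjusted p = 0.010). In all 3 genes CKO 68 was the lowest CKO library and still above WT. Rrm1, the large reductase subunit, held 52.4 to 54.8 CPM in WT and 57.0 to 75.2 in CKO without being called (adjusted p = 0.0618), and Dut, which removes dUTP, overlapped.

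**Figure D3:**
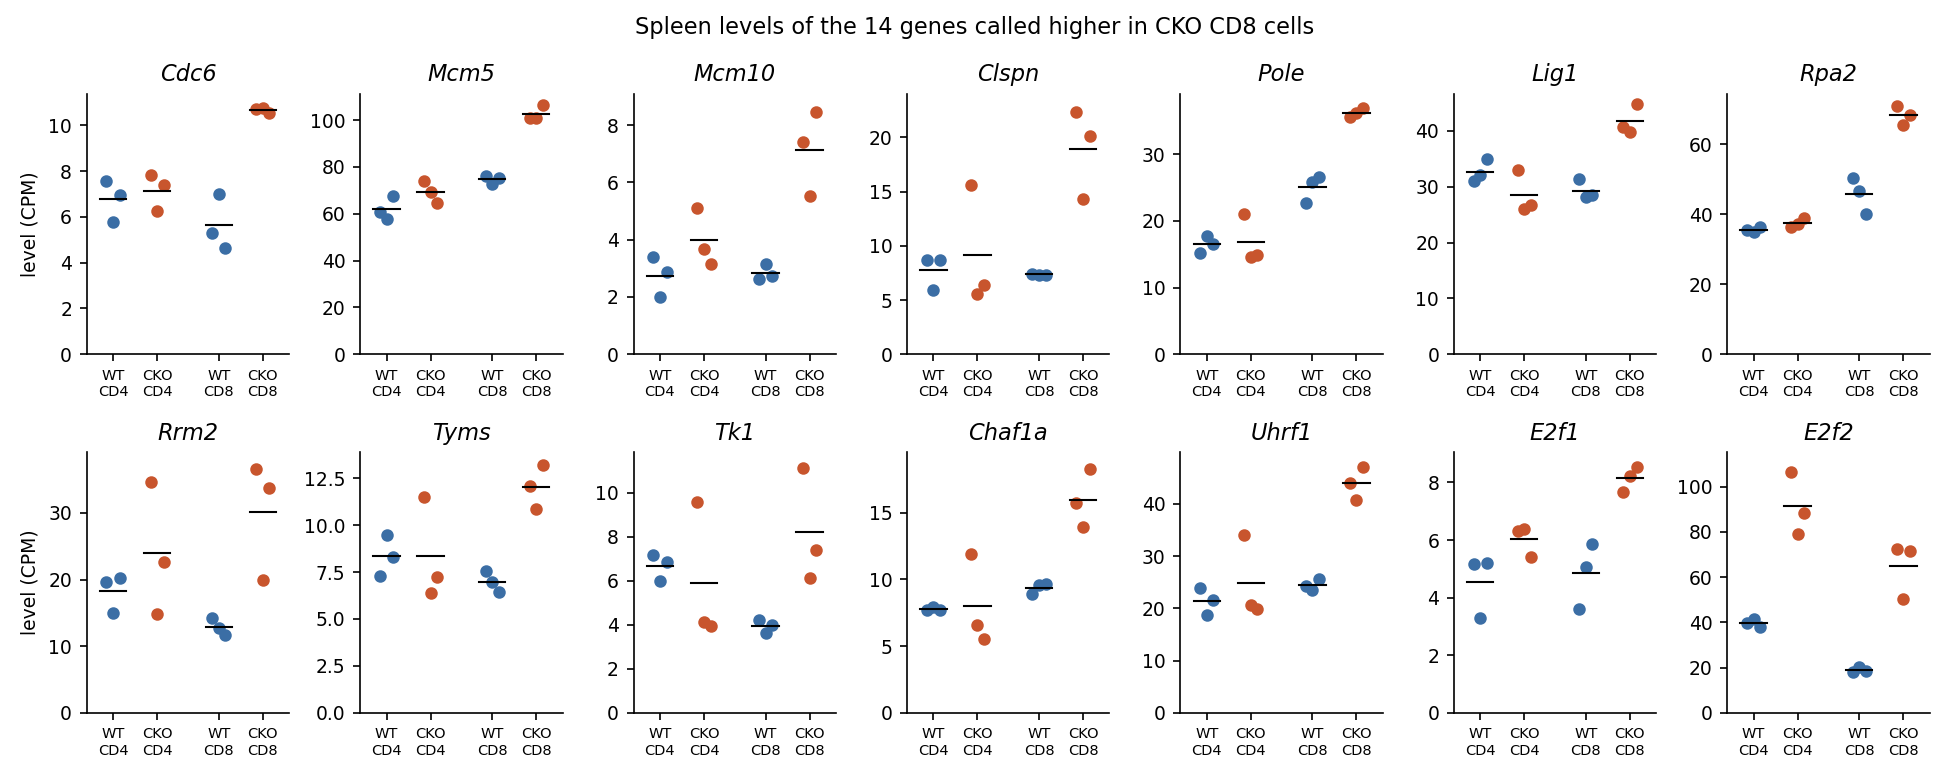
CPM per library in spleen CD4 and CD8 cells for the 14 genes called higher in CKO CD8 cells, WT in blue and CKO in orange, with a black line at each mean and axes from 0. All 14 genes have 3 CKO CD8 libraries above 3 WT CD8 libraries; in CD4 cells this holds for E2f1 and E2f2.

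Groups without overlap were common in spleen CD8 cells: 24 of the 46 genes had all CKO above all WT libraries and 1, Cdt1, had them below, where 20.1% and 14.5% of all genes tested did so. Transcripts of other gene groups and of some cell type marker lists differed between the genotypes here. Of 20 mitosis genes, 18 rose, against 9.83% of all genes tested, with a median log2 change of 1.26. Their summed level was 268 to 292 CPM in WT and 527 to 758 in CKO. The 6 mature T cell markers summed to 3618 to 3793 CPM in WT and 2921 to 3011 in CKO, the 8 myeloid markers, all detected, to 29.5 to 48.5 and 92.0 to 134, and the 4 natural killer markers, all detected, to 94.4 to 100 and 113 to 169. The sums of the T cell, B cell, immature thymocyte, DP stage, erythroid and thymic epithelium lists overlapped between the genotypes. Rag2 and the epithelial genes Krt5, Krt8 and Foxn1 were listed at 0 in all 6 libraries. The part of these markers in the result was not tested. The log2 ratio of each CKO library to the WT mean rose with transcript length over 43 of these genes (Spearman rho 0.38 to 0.50, and 0.05 to 0.21 over 8836 genes), a relation whose part in the result was not tested. By Ddx3y, a Y-linked gene, all spleen mice were female. Leaving out 1 library at a time gave 13 to 16 genes called higher.

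Spleen CD4 T cells of the same mice showed E2f2 higher and little else. There 1 of 46 genes rose and 1 fell, against 8.53% and 5.63% of all genes tested, and the median log2 change of the 46 was -0.03. E2f2 held 39.9, 41.6 and 38.0 CPM in WT and 106, 79.0 and 88.4 in CKO, a log2 change of 1.20 (SE 0.10, adjusted p = 2.36e-05). Mcm6, a subunit of the replicative helicase, held 114, 112 and 133 CPM in WT and 103, 86.6 and 97.6 in CKO. The groups did not overlap, and the log2 change was -0.31 (SE 0.08, adjusted p = 0.0242), a call lost without WT 71, CKO 68 or CKO 72 (adjusted p 0.0528 to 0.113). Rpa1, the large single-strand binding subunit, held 209, 217 and 220 CPM in WT and 255, 233 and 244 in CKO, with a log2 difference of 0.19 (SE 0.06) at an adjusted p of 0.0536.

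Some other genes that rose in CD8 cells were spread unevenly over the CKO CD4 libraries. Rrm2 held 19.6, 14.9 and 20.3 CPM in WT and 34.6, 14.8 and 22.6 in CKO, and Clspn held 8.69, 5.96 and 8.69 against 15.6, 5.53 and 6.35. Uhrf1 held 23.9, 18.8 and 21.6 CPM in WT and 34.1, 20.7 and 19.8 in CKO. In all 3 genes CKO 65 stood above WT and CKO 68 lay inside or below the WT range, and CKO 65 was the highest of the 6 libraries for 23 of the 47 genes. E2f1 (6.30, 6.40 and 5.42 CPM in CKO 65, 68 and 72) and Cdc6 (7.81, 6.24 and 7.40) were spread more evenly. The genes followed by role in every population had log2 differences of 0.17 (SE 0.08) for Mcm5, -0.10 (SE 0.10) for Cdt1, -0.07 (SE 0.13) for Pola1, -0.14 (SE 0.07) for Pcna, 0.40 (SE 0.23) for Rrm2, 0.22 (SE 0.18) for Uhrf1 and 0.37 (SE 0.21) for Ccne1, none of them called. Pole2, a small subunit of the leading strand polymerase (0.30, SE 0.12), and the clamp loader Rfc4 (-0.36, SE 0.17) were among the 5 smallest p-values without passing. Pole2, Rpa1, E2f1 and E2f2 had all CKO libraries above WT and Mcm2, Mcm6, Pcna, Rfc4 and Ccne2 below, where 16.5% of all genes tested did so in each direction. None of 20 mitosis genes was called here, where 8.53% of all genes tested were called higher and 5.63% lower. Of the 20, 7 had an unadjusted p under 0.05 in edgeR, a count not set against all genes. The sum of the 20 was 678 CPM in CKO 65 against 322 and 385 in the other CKO libraries and 323 to 364 in WT. Myeloid markers summed to 73.4 to 108 CPM in WT and 125 to 280 in CKO, and their part in these values was not tested.

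Beyond the 47, a list of 51 other replication genes was counted in the same fits. In spleen CD8 cells 12 of 50 tested rose and 2 fell, against 9.83% and 6.22% of all genes tested. The median log2 change of the 50 was 0.14. In spleen CD4 cells 8 rose and 3 fell, against 8.53% and 5.63% of all genes tested, with a median of 0.00. The same 3 genes had the smallest p in both: Orc4, an origin recognition subunit, Tonsl, which acts at stalled forks, and Pold3, a subunit of the lagging strand polymerase. Orc4 held 46.2, 44.1 and 47.7 CPM in WT CD8 cells and 100, 86.6 and 96.2 in CKO CD8 cells, a log2 change of 1.01 (SE 0.08, adjusted p = 6.70e-05), and it rose by 1.16 (SE 0.08, adjusted p = 1.11e-05) in CD4 cells. Tonsl rose by 1.0 in CD8 and 0.97 in CD4 cells, and Pold3 by 0.75 in both, with SEs of at most 0.09. Of the 47 genes, E2f2 alone was called higher in both spleen populations. None of the 50 was called in any of the 3 thymus populations by edgeR, with 4 to 8 at an unadjusted p under 0.05. Of all genes tested, 7.07% in DP, 2.58% in CD4 SP and 10.4% in CD8 SP had such a p.

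The genotype effect was compared directly between the spleen populations, with 12 libraries in one fit. It was larger in CD8 than in CD4 cells for 3 of 46 genes and smaller for none, against 1.81% and 0.749% of all genes tested. Lig1 differed by 0.67 on the log2 scale (SE 0.14, adjusted p = 0.0142), Mcm6 by 0.48 (SE 0.11, adjusted p = 0.0240) and Rpa2 by 0.46 (SE 0.12, adjusted p = 0.0480). Leaving out 1 of the 12 libraries at a time, Lig1 stayed called in all fits, Mcm6 lost its call in 5 (adjusted p up to 0.0664) and Rpa2 in 11 (up to 0.108). Without CD4 CKO 65 the number called was 11, and without CD4 WT 71, CD4 CKO 68, CD8 WT 71 or CD8 CKO 72 it was 1. In CD4 cells Lig1 held 30.9, 32.1 and 35.0 CPM in WT and 32.9, 26.0 and 26.8 in CKO, so its WT and CKO groups overlapped, whereas the CD8 groups were apart. Rpa2 held 35.4, 34.9 and 36.3 CPM in WT CD4 cells and 36.2, 37.1 and 39.0 in CKO CD4 cells, again overlapping. Mcm6 held 138, 132 and 129 CPM in WT CD8 cells and 156, 144 and 156 in CKO CD8 cells, above WT, while in CD4 cells it was below WT. The median difference over the 46 genes was 0.23, with 40 of 46 positive, against -0.02 over all genes tested.

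With the animal as a block, since each mouse gave both populations, 10 genes were called in place of 3 (Cdc6, Mcm6, Clspn, Lig1, Rpa2, Rrm1, Rrm2, Tk1, Uhrf1 and E2f2), against 4.49% of all genes. E2f2, which rose in both populations, differed by 0.55 (SE 0.18) with an adjusted p of 0.147, and 0.00373 with the block. Cdc6 (0.81, SE 0.24) and Rrm1 (0.48, SE 0.16) were the next by p, with adjusted p-values of 0.102 and 0.161 and, with the block, 0.0496 and 0.00717.

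In WT mice, spleen CD8 cells held more of several of these genes than CD4 cells, and less of E2f2. Of 46 genes, 12 were higher and 4 lower in CD8, against 15.3% and 16.5% of all genes tested. Without any 1 library 2 or 3 were lower, 2 without CD4 WT 67, CD4 WT 71 or CD8 WT 71. The fit with the animal as a block gave 14 higher and 5 lower, against 17.1% and 18.1% of all genes tested. E2f2 was at 18.9 CPM in CD8 and at 39.8 in CD4 on average, a log2 difference of -1.03 (SE 0.08, adjusted p = 1.25e-06). Cdt1 was higher in CD8 by 0.61, the polymerase genes Pole by 0.65, Pole2 by 0.78 and Pola2 by 0.50, and Mcm7 by 0.35, all on the log2 scale with SEs of at most 0.11. Rpa1, Rrm2 and Tk1 were the other genes lower in CD8. In CKO mice 20 of 46 genes were higher in CD8 than in CD4 cells and 2 lower, against 8.29% and 10.3% of all genes tested, and with the animal as a block 35 were higher and 2 lower, against 17% and 18.5%. Rpa2 (0.88), Mcm6 (0.68), Pole (1.12), Mcm5 (0.58), Lig1 (0.56) and Mcm7 (0.45) had the smallest p-values. E2f2 was again lower in CD8, by -0.48 (SE 0.15, adjusted p = 0.04998). Without CD4 CKO 72, CD8 CKO 72 or CD4 CKO 68 the number higher was 9, 10 and 11. The number lower was 0 or 1 without any 1 library, 0 in 4 of the 6 such fits (CD4 CKO 65, CD4 CKO 72, CD8 CKO 68 or CD8 CKO 72 left out).

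In the thymus more of these genes differed between stages than between genotypes. Between DP and CD4 SP cells of WT mice, 32 of 47 genes fell and 1 rose, against 18.1% and 21.7% of all genes tested, with a median log2 change of -0.48 against 0.01 over all genes. E2f2 held 592, 758 and 771 CPM in DP and 266, 239 and 381 in CD4 SP of mice 15, 18 and 24, a log2 change of -1.27 (SE 0.17, adjusted p = 7.02e-05). Rrm2 fell by 1.26 on the log2 scale, Cdc45 by 1.0, Clspn by 0.94, Uhrf1 by 0.94 and Mcm10 by 0.89. All 5 nucleotide genes, 6 of 7 polymerase and primase genes and 5 of 7 helicase and checkpoint genes fell, but 4 of 9 clamp and lagging strand genes. Orc1, the largest subunit of the origin recognition complex, went the other way, from 29.1, 29.8 and 23.8 CPM to 47.7, 41.6 and 33.9, a log2 change of 0.57 (SE 0.14, adjusted p = 0.00726). That call was lost without DP WT 24. The 9 markers of the DP stage summed to 11898 to 13395 CPM in WT DP libraries and still to 4577 to 7278 in WT CD4 SP libraries, where Rag1 held 1115, 731 and 1771 CPM, and the part of carried-over DP cells in this comparison was not tested.

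Genes with a larger fall at this thymic step tended to have a larger CKO estimate in spleen CD8 cells. Across 46 genes the 2 log2 changes, which come from separate libraries of separate mice, had a Pearson r of -0.57 and a Spearman rho of -0.48. Without E2f2 these were -0.50 and -0.44 over 45 genes. With the CKO estimates of spleen CD4 cells in place of CD8, r was -0.41 and rho -0.17 over 46 genes, and the difference between the populations was not tested. The 14 genes called in spleen CD8 had a median change of -0.76 at the thymic step and the other 32 a median of -0.40. This is a description across genes, which are not independent replicates: all points of an axis share its 6 libraries, and genes of low count vary most.

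**Figure D4:**
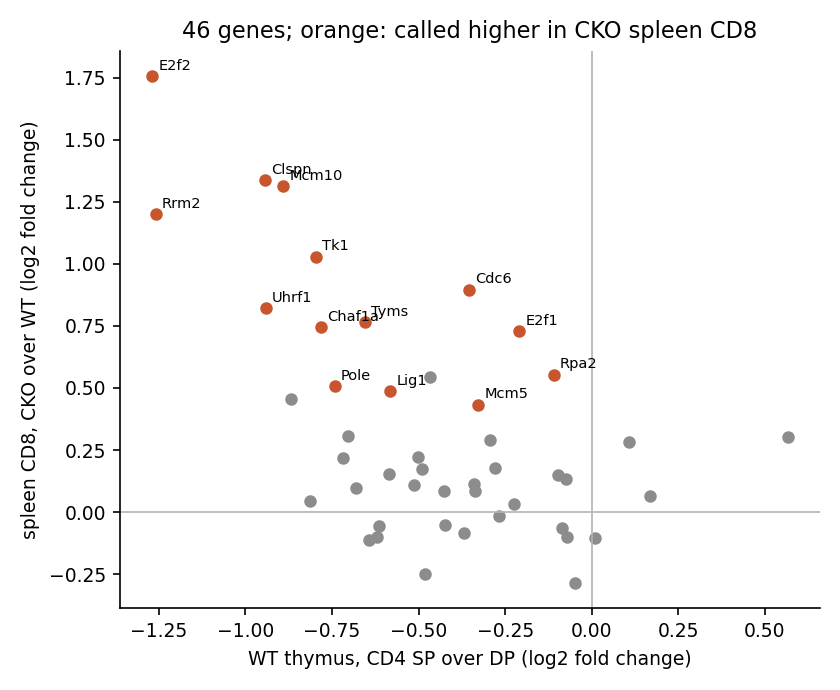
Log2 fold change of CD4 SP over DP in WT thymus (x axis) against log2 fold change of CKO over WT in spleen CD8 cells (y axis), 1 point per gene for 46 genes, with the 14 genes called in spleen CD8 in orange and named. E2f2, Rrm2, Clspn and Mcm10 lie at the upper left, with falls of 0.89 to 1.27 at the thymic step and rises of 1.20 to 1.76 in the spleen.

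In DP thymocytes nearly all of these genes had a lower estimate in CKO mice, but none passed the test. Of 47 genes, 45 had a negative log2 difference, with a median of -0.20 against 0.00 over all genes tested. No gene was called by edgeR, limma or DESeq2, and 11 had an unadjusted p under 0.05 in edgeR, where 7.07% of all genes did. In this population 0.0172% of all genes were called higher and 0.0086% lower. Clspn held 93.6, 134 and 112 CPM in WT mice 15, 18 and 24 and 88.8, 92.2 and 80.9 in CKO mice 14, 17 and 23, a log2 difference of -0.38 (SE 0.11, adjusted p = 0.660). E2f2 held 592, 758 and 771 CPM in WT and 569, 531 and 596 in CKO (-0.33, SE 0.10, adjusted p = 0.660). All CKO libraries lay below WT for Clspn, whereas for E2f2 CKO 23 lay just above WT 15. Uhrf1, at 298, 422 and 459 CPM in WT and 317, 321 and 301 in CKO, had WT 15 below all CKO libraries.

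WT 15 was the lowest of the 3 WT libraries for 45 of the 47 genes, and without it 2 genes were called lower, E2f2 (-0.44, adjusted p = 0.0449) and Uhrf1 (-0.50, adjusted p = 0.0235). Cdc45 (-0.37, SE 0.12), Gins1 (-0.34, SE 0.12) and Slbp, which binds histone messenger RNA (-0.22, SE 0.08), made up the 5 smallest p-values. Gins1, Clspn, Prim2, a primase subunit, and Pole2 had all CKO below all WT libraries, where 5.47% of all genes did. Of the genes followed in every population, Mcm5 (-0.17, SE 0.11), Cdt1 (-0.13, SE 0.10), Pola1 (-0.09, SE 0.13), Pcna (-0.17, SE 0.09), Rrm2 (-0.24, SE 0.15) and Ccne1 (-0.12, SE 0.14) gave the same sign as the rest. Orc1 and Gins4 were the genes with positive estimates. The mitosis genes lay the same way, with all 19 tested at negative estimates and a median of -0.39, none called (17 at an unadjusted p under 0.05).

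In thymus CD4 SP cells the 3 CKO libraries went in different directions, and no gene was called. Their summed levels were 5651, 2354 and 3317 CPM in mice 14, 17 and 23, against 3731 to 4299 in WT. The call was absent by edgeR, limma and DESeq2 alike, 2 of the 47 genes had an unadjusted p under 0.05 in edgeR (2.58% of all genes did), and 0% of all genes were called in each direction. E2f2 held 266, 239 and 381 CPM in WT and 544, 57.6 and 170 in CKO, and Rrm2 held 109, 104 and 136 against 230, 35.4 and 89.8. CKO 14 was above WT and CKO 17 and 23 below it for both genes. The median SE of the 47 log2 differences was 0.37, against 0.12 in DP.

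CKO 14 did not raise all of the genes. It stood above all WT libraries for 29 of them and below all WT libraries for 13: Orc1, Orc6, Mcm4, Gins1, Gins3, Clspn, Pola1, Prim1, Pole2, Pcna, Slbp, Ccne2 and Brca1. Pola1 held 32.2, 31.6 and 34.7 CPM in WT and 6.56, 22.8 and 30.9 in CKO, and Ccne2 held 25.7, 22.8 and 17.5 against 3.63, 16.1 and 25.1. Mcm2 on the other side held 168, 176 and 207 CPM in WT and 359, 127 and 154 in CKO. The ring subunits Mcm2 and Mcm4 thus lay on opposite sides of WT in one library. The log2 ratio of CKO 14 to the WT mean followed the GC content of the longest transcript, with a Spearman rho of 0.46 over the 47 genes and 0.61 over 9426 genes with a mean of at least 5 CPM. In the other CD4 SP libraries rho over all genes ran from -0.59 (WT 15) to 0.35 (WT 24). The 15 genes of lowest GC (36.3 to 47.3%) had a median log2 ratio of -0.51 in CKO 14 and the 15 of highest GC (52.7 to 60.7%) one of 0.65. The part of GC content in the level of any gene was not tested.

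**Figure D5:**
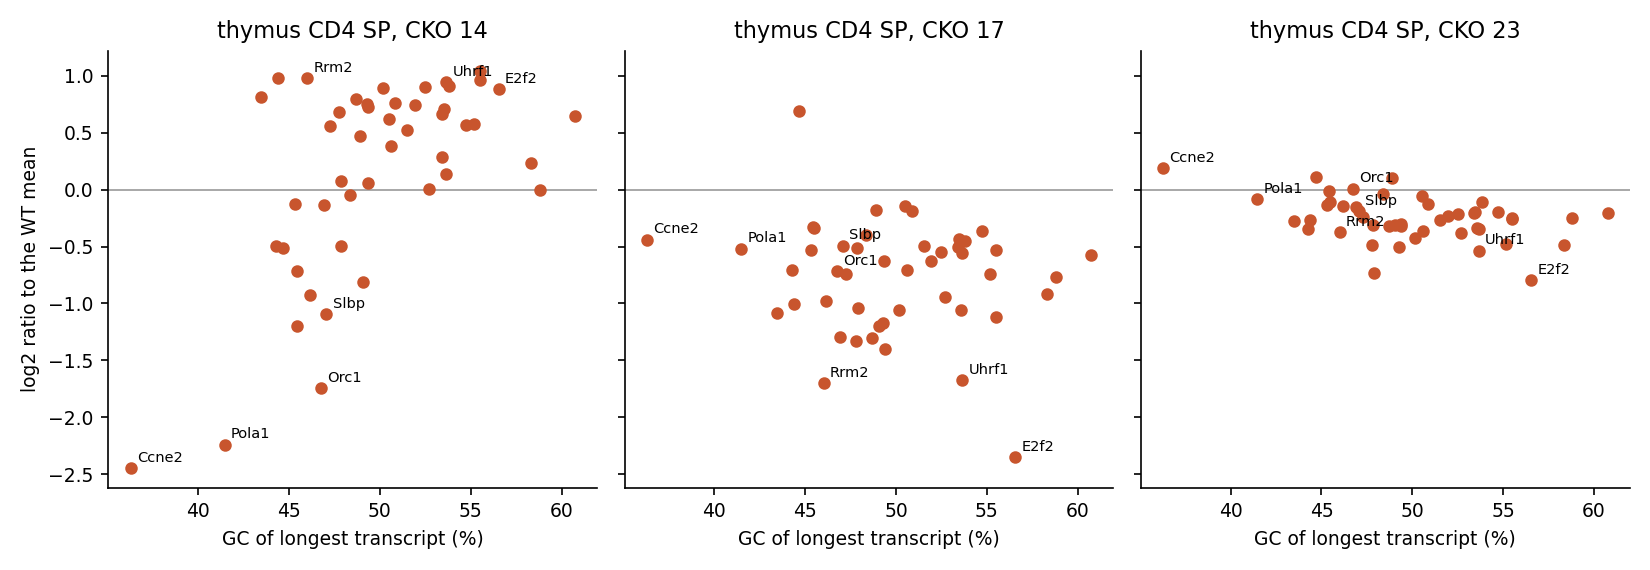
Log2 ratio of each CKO thymus CD4 SP library to the WT mean (y axis) against the GC content of the longest protein-coding transcript (x axis, percent), 1 point per gene for the 47 genes and 1 panel per mouse. In CKO 14 the low-GC genes Ccne2, Pola1 and Orc1 lie far below 0 and most genes above 52.7% GC lie above it, whereas in CKO 17 all genes but Pole2 (0.69) lie below 0, with E2f2 lowest, and in CKO 23 they lie nearer to 0.

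CKO 17 stood below all WT libraries for 46 of 47 genes and CKO 23 for 38. The markers of the DP stage moved alongside: 9 of 9 were detected, with sums of 4577 to 7278 CPM in WT and 1326 to 10162 in CKO. Rag1 held 1908, 30.3 and 966 CPM in CKO 14, 17 and 23, so the library with the least of it was also the lowest in these genes, and the part of carried-over DP cells was not tested. Mki67, a proliferation marker, held 504, 330 and 471 CPM in WT and 97.5, 157 and 321 in CKO. The 20 mitosis genes, Mki67 among them, summed to 1425 to 1931 CPM in WT and to 1829, 618 and 1217 in CKO 14, 17 and 23. In CKO 14 they went both ways. Cdc20 held 237 CPM there against 62.7 to 95.3 in WT, and Cenpf 8.65 against 43.1 to 68.5. Without CKO 14 the median log2 difference of the 47 genes was -0.47 in place of 0.00, with Uhrf1 at -1.0 and Rrm2 at -0.89, and still no gene was called. In the full comparison Clspn (-0.68, SE 0.26), Gins3 (-0.70, SE 0.27), Prim1, the primase catalytic subunit (-0.45, SE 0.21), Slbp (-0.50, SE 0.24) and the repair gene Brca1 (-0.59, SE 0.28) had the smallest p-values and all CKO below all WT libraries, as did 4 further genes, where 6.12% of all genes did. The genes followed in every population were at 0.18 (SE 0.40) for Mcm5, -0.23 (SE 0.27) for Cdt1, 0.02 (SE 0.52) for Cdc45, -0.68 (SE 0.48) for Pola1, -0.18 (SE 0.21) for Pcna, 0.14 (SE 0.64) for Rrm2, 0.08 (SE 0.63) for Uhrf1 and -0.31 (SE 0.31) for Ccne1.

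The genotype effect in CD4 SP minus that in DP cells was called for none of 47 genes by edgeR, limma or DESeq2, with 0 at an unadjusted p under 0.05 in edgeR against 2.15% of all genes. The percentages of all genes called were 0% in both directions. Gins3 (-0.49, SE 0.26), Orc1 (-0.92, SE 0.53), Pole2 (0.53, SE 0.37), Prim1 (-0.27, SE 0.21), Rfc2 (0.35, SE 0.29) and Fen1 (0.51, SE 0.43) had the smallest p-values. The median was 0.20, and -0.26 without CD4 SP CKO 14.

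In thymus CD8 SP cells, where the summed level of the 47 genes was highest, the estimated differences between genotypes were small. Prmt5 itself also differed least here, with an estimated fold of 0.80 against 0.47 to 0.55 in the other 4 populations. The part of this in the small differences was not tested. No gene was called by edgeR, against 0.0335% of all genes higher and 0.0805% lower, and 6 had an unadjusted p under 0.05, where 10.4% of all genes did. DESeq2 called 2 genes higher, Pole and Rfc5, and limma none. Of the 47 log2 differences, 39 were positive, with a median of 0.04 and a range from -0.07 to 0.23. Pole held 211, 194 and 225 CPM in WT mice 1, 2 and 3 and 253, 249 and 238 in CKO mice 1, 2 and 3, a log2 difference of 0.22 (SE 0.05, adjusted p = 0.156). The clamp loader Rfc5 held 97.7, 96.5 and 105 CPM in WT and 115, 116 and 114 in CKO, a log2 difference of 0.19 (SE 0.05, adjusted p = 0.184). Both genes were higher in every CKO library, as were 10 more, where 8.85% of all genes were. The mitosis genes summed to 7102 to 7917 CPM in WT and to 8057 to 8253 in CKO, without overlap.

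Gins3 (0.23), Clspn (0.16) and Rrm1 (0.10) were the next by p. Of the 5 genes with the largest rise in spleen CD8 cells, E2f2 (0.12), Mcm10 (0.00) and Rrm2 (0.11) had overlapping groups here, and Clspn (0.16) and Tk1 (0.15) had every CKO library above WT without being called. E2f2 held 430, 378 and 422 CPM in WT and 455, 482 and 407 in CKO. The genes followed in every population were at 0.03 (SE 0.04) for Mcm5, 0.00 (SE 0.04) for Cdt1, 0.08 (SE 0.24) for Cdc45, 0.06 (SE 0.05) for Pola1, 0.01 (SE 0.04) for Pcna, 0.11 (SE 0.06) for Rrm2, 0.01 (SE 0.05) for Uhrf1 and 0.03 (SE 0.07) for Ccne1, none of them called. WT 2 was the lowest of the 6 libraries for 34 of the 47 genes. By Ddx3y the WT mice and CKO 1 were male and CKO 2 and 3 female, and mice of both sexes were in each genotype in the other thymus populations.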

How the data were processed

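Poly(A) RNA of the sorted cells went, per the labels' protocols, into libraries that keep strand. The deposited values are whole-number read counts per gene symbol. The authors aligned with HISAT2 and counted with HTSeq on GRCm38, per the submitters' processing notes. The sources used here give no versions, annotation or strand setting. Whether the counting separated reads of genes that overlap on opposite strands is therefore not known. The tables were 3: thymus DP with CD4 SP (21983 symbols), thymus CD8 SP, and spleen.

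Each population was fitted alone with edgeR 4.0.16 in R 4.3.3 (filterByExpr defaults, TMM, quasi-likelihood test, Benjamini-Hochberg over all genes tested, threshold 0.05), and the script was tested on simulated data. Each SE is the size of a log2 fold change over the square root of its F statistic. In the shallowest library 10 counts equal 0.843 CPM. Library pairs of a group differed beyond counting noise (lowest chi-square per degree of freedom 6.20 over 30 pairs). Alternatives were DESeq2 1.42.0, limma 3.58.1 (voom with quality weights), DESeq2 size factors, other filters, all 12 libraries of a table, sex from Ddx3y (over 20 CPM as male), a replicate block and each library left out. Spleen libraries of one animal deviated together (r 0.0920 to 0.387, other pairs -0.247 to 0.00591). Thymus DP and CD4 SP libraries of one animal did so less clearly (-0.171 to 0.246, other pairs -0.238 to 0.194).

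The 47 genes and the lists were chosen with earlier results of these data known. Named were 8 genes by role in every population (Mcm5, Cdt1, Cdc45, Pola1, Pcna, Rrm2, Uhrf1, Ccne1), the 15 smallest p among those called, or the 5 smallest p where under 5 were called, 6 in each other contrast, and 3 of each further list. Per-library values of other genes, the comparisons with GC content and length (longest protein-coding transcript, GENCODE vM21; 99.6% of genes matched in thymus CD4 SP, 91.1% in spleen CD8) and the comparison of the thymic step with spleen CD8 were chosen after seeing the data. Promoters are RefSeq windows. Tests were run within a table; levels from different tables are set side by side only.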

Additional observations from a re-analysis of the deposited data

Results flagged for a closer look

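In 3 of the 46 replication and S phase genes tested, the genotype effect differed between spleen CD8 and spleen CD4 cells by edgeR's test of the difference itself. Lig1 differed by 0.67 on the log2 scale (adjusted p = 0.0142), Mcm6 by 0.48 (adjusted p = 0.0240) and Rpa2 by 0.46 (adjusted p = 0.0480). Lig1 and Rpa2 rose in CKO CD8 cells and were not called in CD4 cells, and Mcm6 fell in CKO CD4 cells and was not called in CD8 cells. Rpa2 lost its call in all but 1 of the fits that left out 1 library, and Mcm6 in 5 of 12. These fits had no term for the animal, though each mouse gave both populations. The fit with the animal as a block called 10 genes, Lig1, Mcm6 and Rpa2 among them, against 4.49% of all genes.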

How the results depend on the processing

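The 14 genes called higher in CKO spleen CD8 cells numbered 13 to 16 when 1 library was left out and 15 by DESeq2 and by limma; without a filter 1 gene, Cdt1, was also called lower there. Thymus CD8 SP had 2 genes called higher by DESeq2 and 2 without a filter (Pole and Rfc5). Spleen CD4 had 2 called higher in place of 1 by DESeq2, limma, without a filter, with the 5 CPM filter and with all 12 libraries in one fit. The spleen difference between populations had 9 genes called higher without a filter and 10 with the animal as a replicate block, and CKO spleen CD8 against CD4 had 35 higher with the block and 1 lower without a filter or with the 5 CPM filter. The block moved no other count by over 1.5 times; in thymus CD8 SP, where numbers 1 to 3 are only a number (same-numbered libraries r 0.0529 to 0.127, others -0.0974 to 0.00645), it took Prmt5 to an adjusted p of 0.0674. The median of the thymus difference between populations turned to -0.20 with limma. In thymus CD4 SP, limma turned Mcm5 to -0.31, Cdc45 to -0.71, Rrm2 to -0.80 and Uhrf1 to -0.88. Cdc45 there was also -0.0096 with the 5 CPM filter, -0.016 with 12 libraries and, with sex as a covariate, -0.12, beside Rrm2 at -0.14 and Uhrf1 at -0.19. In thymus CD8 SP, sex as a covariate gave -0.30 for Cdc45, -0.055 for Pcna, -0.00086 for Uhrf1 and -0.013 for Ccne1, none of them called in any fit. Prmt5 lost its call in DP with 12 libraries (adjusted p = 1) and in CD8 SP with the 5 CPM filter (0.0543), with sex (0.356) and without any 1 library (0.0541 to 0.164). The cause of these shifts was not tested.

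Leaving out 1 library at a time gave these lowest and highest values. Genes called lower numbered 0 to 2 in DP (2 without WT 15), 0 to 2 in spleen CD4 (0 without WT 71, CKO 68 or CKO 72, and 2 without CKO 65) and 0 to 1 in spleen CD8 (1 without CKO 68). Spleen CD4 had 1 to 2 called higher (2, with Rrm2, without CKO 68), the spleen difference 1 to 11, and WT thymus CD4 SP against DP 0 to 1 (0 without DP WT 24). WT spleen CD8 against CD4 had 2 to 3 called lower (2 without CD4 WT 67, CD4 WT 71 or CD8 WT 71) and a median of 0.15 to 0.24. CKO spleen CD8 against CD4 had 9 to 20 called higher, 0 to 1 lower, and a median of 0.40 to 0.50. The median ran from -0.47 (without CKO 14) to 0.30 in CD4 SP and from -0.26 (without CD4 SP CKO 14) to 0.39 in the thymus difference. Uncalled genes that changed sign ran in DP from -0.21 to 0.014 (Ccne1) and -0.22 to 0.012 (Pola1). In CD4 SP they ran from -0.41 to 0.45 (Mcm5), -0.82 to 0.38 (Cdc45), -0.89 to 0.58 (Rrm2) and -1.0 to 0.51 (Uhrf1). In CD8 SP they ran from -0.022 to 0.017 (Cdt1), -0.11 to 0.25 (Cdc45), -0.012 to 0.039 (Pcna), -0.031 to 0.049 (Uhrf1) and -0.030 to 0.082 (Ccne1). In spleen CD4 they ran from -0.17 to 0.014 (Cdt1), -0.058 to 0.35 (Uhrf1) and -0.19 to 0.063 (Pola1), and in the thymus difference from -0.053 to 0.76 (Fen1). At 3 mice per group, the thymus CD4 SP spread leaves only large differences within reach of the test.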

Other observations

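A list of 25 G1 to S regulators outside the 47 genes was counted in the same fits. In spleen CD8 cells 8 of 25 rose in CKO mice and 1 fell, against 9.83% and 6.22% of all genes tested. The median log2 change of the 25 was 0.16, against -0.01 over all genes tested. Cdk6, a cyclin D partner, held 79.2, 87.0 and 89.5 CPM in WT mice and 149, 128 and 141 in CKO mice, a log2 change of 0.69 (SE 0.08, edgeR's adjusted p = 0.000323). Ccna2, the S and G2 phase cyclin, held 10.8, 9.59 and 10.5 CPM in WT and 29.8, 19.0 and 25.2 in CKO, a change of 1.24 (SE 0.15, adjusted p = 0.000543). E2f7, a repressor of E2F targets, held 0.846, 1.46 and 1.28 CPM in WT and 5.36, 2.98 and 5.66 in CKO, a change of 1.94 (SE 0.32, adjusted p = 0.00231). All 3 genes had every CKO library above every WT library. In spleen CD4 cells 2 of 25 rose and none fell, against 8.53% and 5.63% of all genes tested. The 2 were the cyclin Ccnd3 (0.30, SE 0.06, adjusted p = 0.00714) and the inhibitor Cdkn2d (0.33, SE 0.08, adjusted p = 0.0150).

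At the thymic step from DP to CD4 SP in WT mice 12 of 24 regulators tested fell and 2 rose. Of all genes tested, 18.1% fell and 21.7% rose. The cyclin Ccnd2 rose from 3.37, 2.69 and 4.74 CPM to 125, 126 and 111, a log2 change of 5.03 (SE 0.17, edgeR's adjusted p = 2.11e-09), while most of the replication genes fell. Ccna2 fell by 1.44 and the inhibitor Cdkn2c by 1.33 on the log2 scale. In WT spleen the G1 regulators Rb1 (-0.94) and Cdk2 (-0.97) were lower and Myc (1.01) was higher in CD8 than in CD4 cells.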
